A study of Homo sapiens with 6 samples.

Results

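Clustered replication-dependent histone genes were described in DU-145/tet-XISTshRNA cells, a castration-resistant prostate cancer cell line that carries a doxycycline-inducible short hairpin RNA against XIST. These genes were taken as all gene symbols of the TPM table (transcript counts divided by length and rescaled to the same total in each sample) that begin with HIST1H, HIST2H, HIST3H or HIST4H, which gave 74 of 25528 symbols. By class they were 6 H1, 18 H2A, 20 H2B, 15 H3 and 15 H4 genes. Both groups carried the tet-XISTshRNA vector and came from transduced cells kept under puromycin or geneticin (the records do not say which), and neither is stated to be a clone. Vehicle (0.1% DMSO) was given to 3 samples and doxycycline (DOX, 500 ng/ml) to the other 3, for 7 days by the study's methods. No group with DOX and a control hairpin was analysed here, so an effect of DOX itself and one of the hairpin cannot be told apart. The records say that cells were cultured in triplicate. P-values measure only the spread between these samples, in part or wholly shared over genes of like level.

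Core histones H2A, H2B, H3 and H4 form the nucleosome, and the linker histone H1 binds the DNA where it enters and leaves. In dividing cells most of this protein comes from clustered genes that are transcribed in S phase, in a nuclear body organised by NPAT. Their mRNAs usually end in a conserved stem-loop in place of a poly(A) tail. The stem-loop is bound by SLBP, and the U7 small nuclear ribonucleoprotein directs the cut behind it. At the end of S phase or on a block of replication these mRNAs are degraded quickly.

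The libraries were made with a kit that selects polyadenylated RNA, so a histone mRNA without a tail may be captured only in part. How much each gene was captured was not measured. Of the 74 genes, 69 could be placed on GRCh38 through RefSeq, 51 on chromosome 6, 17 on chromosome 1 and 1 on chromosome 12. The other 5 (HIST1H2BC, HIST1H2BE, HIST1H2BF, HIST1H2BG and HIST1H2BI) share an older name among RefSeq genes and were given no position or sequence. RefSeq lists 3 of the placed genes as pseudogenes. The canonical transcript has a single exon in 68 of 69, with a median length of 493 bases.

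The stem-loop letters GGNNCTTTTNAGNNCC were searched on the sense strand within 150 bases after the stop codon. They were present in 64 of 66 histone genes searched (97.0%) and in 6 of 19894 other protein-coding genes (0.0302%). These 6 are H2AX, TIPARP and the H2B genes H2BC4, H2BC6, H2BC7 and H2BC8, which are current symbols among those that the 5 unplaced genes could match. These stem-loops are shown for the gene with the highest placed level of each class, with the 16 matched bases in capitals. They are also shown for HIST1H1T, HIST1H2AH, HIST2H2AB and HIST1H2AK, which are among the genes with the widest differences of TPM. HIST1H3J, another of those genes, carries the letters too and is not shown.

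HIST1H1C (chr6:26055739-26055764, minus strand): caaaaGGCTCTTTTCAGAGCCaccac
HIST2H2AC (chr1:149887386-149887411, plus strand): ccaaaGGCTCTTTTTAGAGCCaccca
HIST1H2BK (chr6:27146361-27146386, minus strand): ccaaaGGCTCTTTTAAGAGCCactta
HIST1H3B (chr6:26031592-26031617, minus strand): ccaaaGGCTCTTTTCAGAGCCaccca
HIST1H4B (chr6:26026896-26026921, minus strand): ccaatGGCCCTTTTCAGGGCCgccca
HIST1H1T (chr6:26107412-26107437, minus strand): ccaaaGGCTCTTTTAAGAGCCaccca
HIST1H2AH (chr6:27147541-27147566, plus strand): acaaaGGCTCTTTTCAGAGCCattct
HIST2H2AB (chr1:149887468-149887493, minus strand): ccaaaGGCTCTTTTAAGAGCCaccaa
HIST1H2AK (chr6:27837880-27837905, minus strand): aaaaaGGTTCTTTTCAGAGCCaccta

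In the 9 genes the capitals begin 28 to 50 bases after the stop codon. HIST1H1T, HIST2H2AB and HIST1H2BK carry the same 16 capitals, beside log2 fold changes of TPM of -0.997, 0.94 and -0.29. A match describes the letters alone and does not show that the RNA is processed there.

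The classes differ more in the bases before the start of transcription. The octamer bound by POU2F1 was searched as ATTTGCAT on both strands in the 250 bases before the start of 61 genes. The box bound by NF-Y was searched there in the same way as CCAAT. The box of the general transcription machinery was searched as TATAAA, again on both strands. The letters CCAAT were present in all H1, H2A, H2B and H3 genes searched, in 3 of 13 H4 genes (23.1%) and in 33.0% of all RefSeq promoters of this length. TATAAA was present in 41 of the 61 (67.2%, against 11.1% of all promoters). The octamer was present in 11 of 16 H2A genes (68.8%), 9 of 13 H2B genes (69.2%), 1 of 13 H3 genes (7.69%) and 0 of the H1 and H4 genes, against 1.66% of all promoters. The 3 motifs do not share letters at any site shown here. These layouts are shown for the spans between the starts of 2 head-to-head pairs of an H2A and an H2B gene, and for an H2A, an H4 and an H1 gene, with the motifs on either strand in capitals. The promoters come from RefSeq on GRCh38, as do the gene positions, and the bases after stop codons come from GRCh38 with GENCODE annotation.

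HIST2H2AC to HIST2H2BE, all bases between the starts (chr1:149886683-149886917, plus strand): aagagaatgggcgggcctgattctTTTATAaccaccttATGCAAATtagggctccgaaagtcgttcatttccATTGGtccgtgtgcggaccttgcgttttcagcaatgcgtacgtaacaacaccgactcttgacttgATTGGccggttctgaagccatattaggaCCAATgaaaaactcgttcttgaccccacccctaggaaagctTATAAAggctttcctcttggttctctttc
HIST1H2AK to HIST1H2BN, all bases between the starts (chr6:27838376-27838568, minus strand): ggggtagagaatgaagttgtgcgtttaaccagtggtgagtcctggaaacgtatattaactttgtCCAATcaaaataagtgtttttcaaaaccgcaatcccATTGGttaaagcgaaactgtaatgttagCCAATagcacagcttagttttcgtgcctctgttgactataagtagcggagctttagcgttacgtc
HIST2H2AB (chr1:149887966-149888215, minus strand): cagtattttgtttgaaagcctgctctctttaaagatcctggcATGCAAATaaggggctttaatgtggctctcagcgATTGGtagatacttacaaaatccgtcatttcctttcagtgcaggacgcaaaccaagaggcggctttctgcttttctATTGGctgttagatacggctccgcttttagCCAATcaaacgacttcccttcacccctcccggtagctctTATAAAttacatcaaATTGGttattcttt
HIST1H4B (chr6:26027284-26027533, minus strand): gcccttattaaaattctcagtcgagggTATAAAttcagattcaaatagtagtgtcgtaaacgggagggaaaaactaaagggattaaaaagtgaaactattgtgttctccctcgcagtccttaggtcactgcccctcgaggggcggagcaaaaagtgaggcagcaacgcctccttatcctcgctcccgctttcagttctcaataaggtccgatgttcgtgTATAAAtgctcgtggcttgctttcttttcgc
HIST1H1T (chr6:26108136-26108385, minus strand): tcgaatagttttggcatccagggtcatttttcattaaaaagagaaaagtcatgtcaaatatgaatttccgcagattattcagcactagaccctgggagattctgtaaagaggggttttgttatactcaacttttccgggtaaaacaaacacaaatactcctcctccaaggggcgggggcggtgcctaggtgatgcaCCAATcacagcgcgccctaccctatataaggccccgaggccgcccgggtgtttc

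In the span shared by HIST2H2AC and HIST2H2BE, a TATAAA lies 29 bases before the HIST2H2AC start and another, on the opposite strand, lies near the HIST2H2BE start. HIST2H2AB has the octamer, 4 CCAAT sites and 1 TATAAA, and HIST1H4B has 2 TATAAA and no CCAAT. There were 8 such pairs, with 194 to 248 bases between the starts. A window of 250 bases covers that whole span, so a site in it was counted for both genes of the pair. The near-equal octamer shares of H2A and H2B genes include such repeats.

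Depth differed widely. Reads per gene were recovered from the TPM with the help of a mean normalized count that the authors deposited. By these, 5453710 to 64572488 reads were counted on genes, with the fewest in vehicle replicate 3 and the most in DOX replicate 1. The histone genes held 11428 to 216708 of these reads. The RNAs RN7SL1, RN7SL2, RN7SL3, RN7SK and RPPH1, which have no poly(A) tail, held 67.5% to 76.0% of the TPM in vehicle samples and 76.0% to 82.6% in DOX samples. TPM of the shortest genes is raised relative to their reads, so this share of TPM is not a share of reads, which is not given here. TPM of all other genes is lowered by this share, and the median log2 fold change of the 11672 genes tested was -0.35. Median-of-ratios scaling brought that median to 0.02, and values on this scale are called scaled TPM here. XIST was listed at 0 in all 6 samples, as was EIF4A1, so silencing could not be checked. All 5 epithelial markers were present, summing to 214 to 358 TPM with vehicle and 257 to 286 TPM with DOX, and the 4 leukocyte markers summed to at most 1.00 TPM. In bulk samples, fewer cells that express a gene and less RNA per cell cannot be told apart.

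Not every histone gene was measured. Of the 74, 17 were listed at 0 in every sample and 5 were above 0 with a mean under 1 TPM (HIST1H1A, HIST1H2AD, HIST1H2BB, HIST2H2BA and HIST2H3PS2). The other 52 were tested. For 7 of the 17 at 0, namely HIST1H2APS1, HIST2H2AA3, HIST2H2AA4, HIST2H3A, HIST2H3C, HIST2H4A and HIST2H4B, over 99% of all 50-base words of the gene also occur in another gene. For the other 10 (HIST1H2AA, HIST1H2BA, HIST1H2BH, HIST1H3C, HIST1H3E, HIST1H3F, HIST3H3, HIST1H4E, HIST1H4F and HIST1H4G) no such word is shared. A 0 is therefore given only as listed. Among 47 tested genes with a sequence, 10 shared at least 50% of their words, so their split of reads between copies is uncertain.

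**Figure D1:**
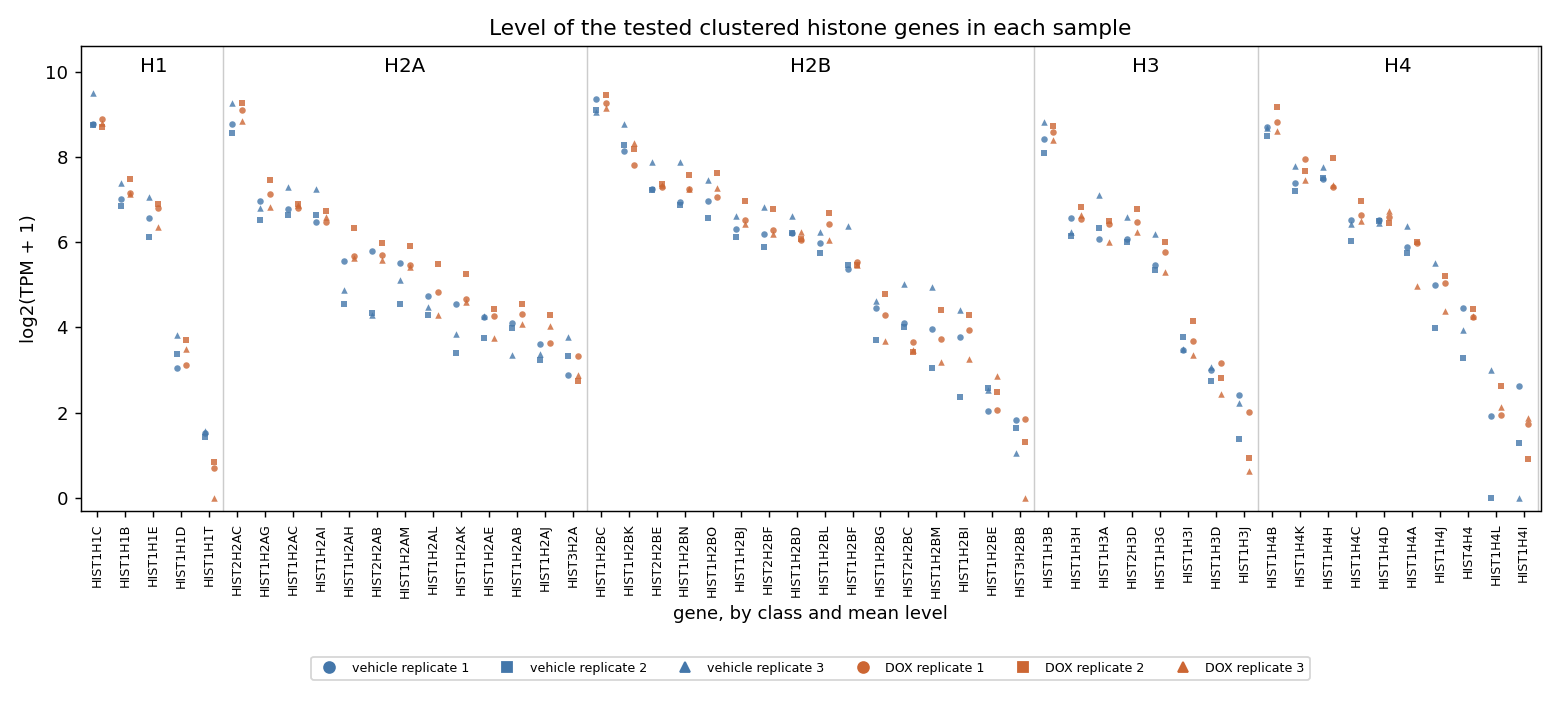
Level of the 52 tested clustered histone genes, as log2(TPM + 1) on the vertical axis, for each gene by class on the horizontal axis. Blue points are the 3 vehicle samples and orange points the 3 DOX samples. In each class 1 to 2 genes are far above the rest, and in most genes the colours overlap.

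On the TPM scale most clustered histone genes differed little between the groups, whereas most other genes had a lower TPM with DOX. By limma on log2(TPM + 1) with Benjamini-Hochberg adjustment over all genes, 1 histone gene, HIST1H1T, was called lower (adjusted p under 0.05 and a fold change over 1.5), which is 1.92% of 52 against 2.98% of all genes. None (0) was called higher, against 0.0257% of all genes. At an unadjusted p under 0.05 and the same fold change, 3 were lower (5.77%, against 19.0% of all genes) and 3 higher (5.77%, against 0.12%). The median log2 fold change of the 52 was 0.11, and 34 were above 0, whereas 805 of all 11672 genes were. All DOX samples lay above all vehicle samples in 3 histone genes (5.77%, against 0.223% of all genes) and below them in 2 (3.85%, against 30.7%).

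After median-of-ratios scaling the median log2 fold change of the histone genes was 0.55 beside 0.02 for all genes, and 48 of 52 were above 0. No gene of the genome was called on this scale by limma (0 lower and 0 higher), and the adjusted p of the histone genes ran from 0.262 to 0.904. At an unadjusted p under 0.05 and a fold change over 1.5, 19 of 52 histone genes were higher (36.5%, against 1.17% of all genes) and 1 was lower (1.92%, against 1.14%). All DOX samples lay above all vehicle samples in 21 of 52 (40.4%, against 10.8%) and below them in 1 (1.92%, against 9.22%). Same-numbered samples of the groups deviated together across genes, most clearly those numbered 1 (r of 0.57, 0.24 and 0.21 on TPM). Over histone genes alone r on TPM was only 0.13, -0.33 and -0.11, and the sample titles state no pairing. Fits were repeated with a block for the replicate number. With it, limma voom on the recovered reads called 22 of 52 higher (42.3%, against 1.46% of all genes) and 0 lower (against 2.24%, with 1 lower at an unadjusted p under 0.05 and the fold change, against 2.93%). Without the block voom called 0 histone genes in either direction, with 25 higher (48.1%, against 2.19% of all genes) and 1 lower (1.92%, against 3.48%) at an unadjusted p and the fold change. With the block on the TPM scale, 4 were called higher (7.69%, against 0.129%) and 3 lower (5.77%, against 19.0%). In that fit the variance came almost wholly from a trend over all genes, so its p-values do not measure agreement between replicates of 1 gene.

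**Figure D2:**
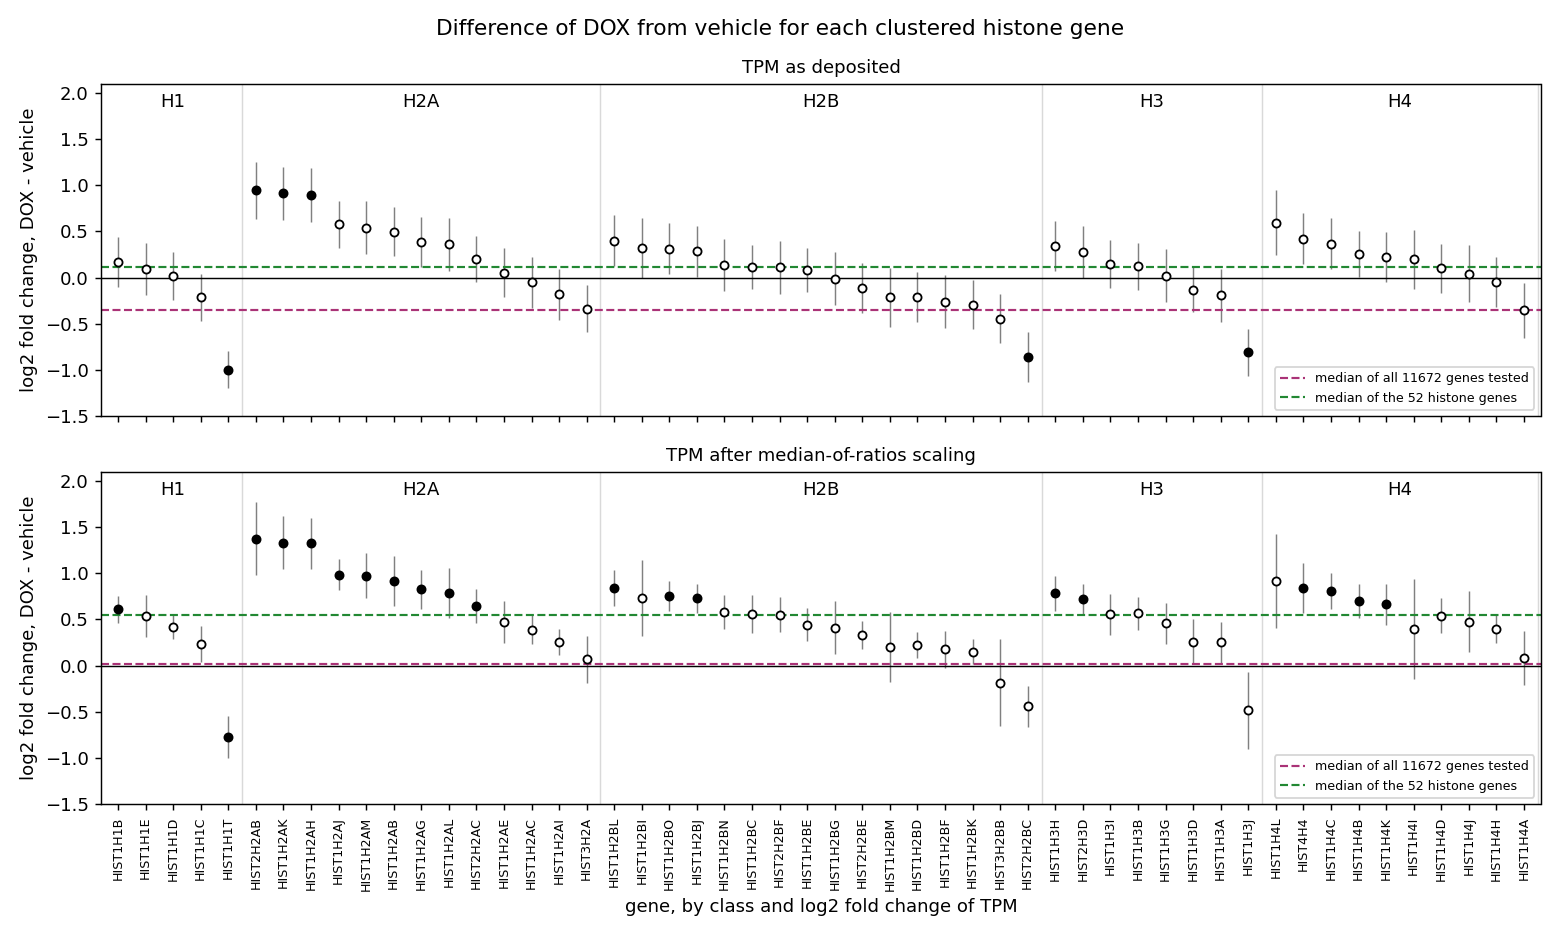
Log2 fold change of DOX against vehicle for each of the 52 genes, with the standard error from limma as bars, on TPM as deposited (upper panel) and after median-of-ratios scaling (lower panel). Filled points have an unadjusted p under 0.05 and a fold change over 1.5. The histone median (green) lies above the median of all genes (purple) on both scales, at 0.11 against -0.35 and at 0.55 against 0.02.

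The summed level showed which samples carried the difference. The 74 genes summed to 5081, 4444 and 6430 TPM in vehicle replicates 1, 2 and 3, and to 5458, 6326 and 5029 TPM in DOX replicates 1, 2 and 3. These groups overlapped. In scaled TPM the sums were 4835, 4003 and 4555 with vehicle and 7864, 6286 and 5405 with DOX, so every DOX sample was above every vehicle sample, and DOX replicate 1 was the highest. The same sample had the highest small RNA share of TPM (82.6%) and the most reads. Of the TPM without the 5 small RNAs, histone genes held 2.11%, 1.75% and 1.98% with vehicle and 3.14%, 2.63% and 2.23% with DOX. Whether capture of RNA without a tail differed between the groups was not tested. Without DOX replicate 1 the median log2 fold change after scaling was 0.41, and 14 of 52 were higher at an unadjusted p under 0.05 and the fold change (26.9%, against 0.677% of all genes). Histone genes are short and rich in G and C, with a median GC content of 57.8% against 47.0% over all genes tested. After GC content and length were regressed out, the median was -0.11 on TPM (all genes -0.36) and 0.36 after scaling (all genes 0.02), over the 47 genes that have both. Then 3 of the 47 were called lower on TPM (6.38%, against 2.84% of all genes). After scaling, 11 were higher (23.4%, against 0.223%) and 2 lower (4.26%, against 0.51%) at an unadjusted p and the fold change.

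**Figure D3:**
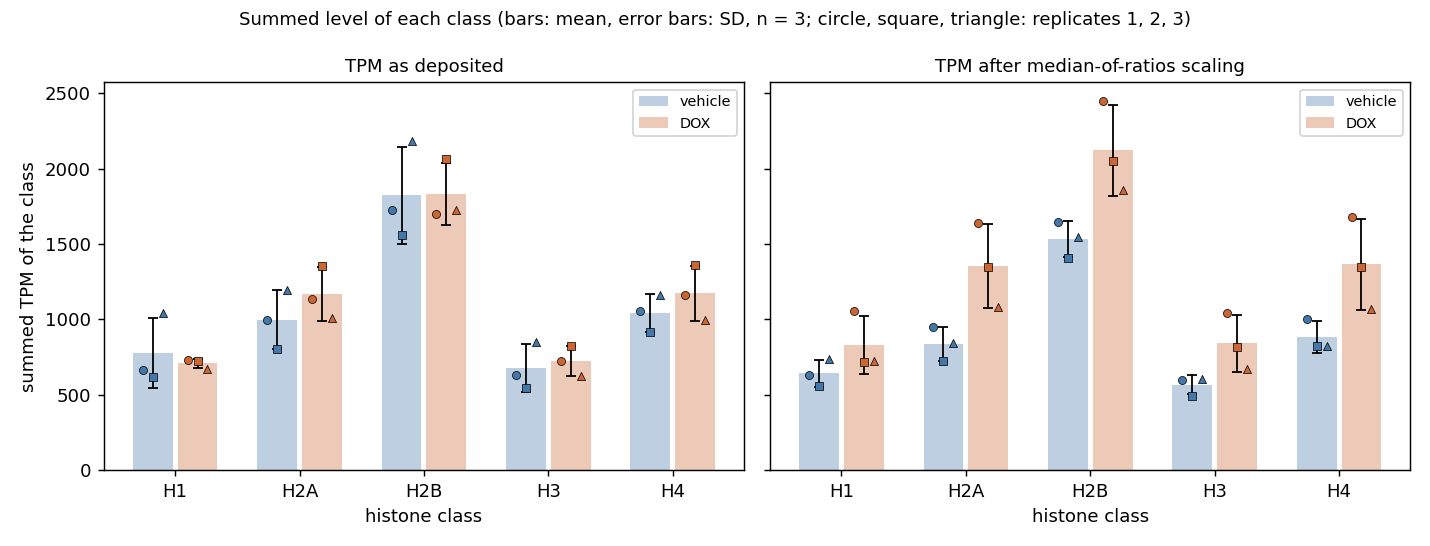
Summed TPM of each histone class as deposited (left) and after median-of-ratios scaling (right), with bars for the mean, error bars for the SD (n = 3) and points for the samples. As deposited, the groups overlap in all 5 classes. After scaling, the 3 DOX samples lie above the 3 vehicle samples in the H2A, H2B, H3 and H4 classes and overlap them in H1.

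Among linker histones, the rare HIST1H1T was the gene called lower on TPM. The more abundant H1 genes had log2 fold changes of TPM from -0.21 to 0.17, all of them above 0 only after scaling. HIST1H1C, the most abundant H1 gene, had 435, 427 and 727 TPM with vehicle and 472, 415 and 443 TPM with DOX. Only vehicle replicate 3 stood apart, and the log2 fold change was -0.21 ± 0.25 (SE, adjusted p = 0.544 by limma). In scaled TPM it was 0.23 ± 0.20. HIST1H1B, an H1 gene used mainly in dividing cells, had 128, 115 and 168 TPM with vehicle and 142, 176 and 140.0 TPM with DOX. Its log2 fold change was 0.17 ± 0.27 on TPM (adjusted p = 0.656 by limma), and after scaling it was 0.61 ± 0.14, with an unadjusted p of 0.00174 and no overlap of the groups. Voom with the block called it higher (0.64 ± 0.11, adjusted p = 0.011).

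HIST1H1E was also called higher by voom with the block (0.62 ± 0.16, adjusted p = 0.0296), whereas its TPM overlapped, with 69.1 to 132 with vehicle and 80.8 to 118 with DOX. HIST1H1D averaged 9.99 ± 2.99 TPM in vehicle samples and 10.0 ± 2.25 TPM in DOX samples (SD, n = 3 each), a log2 fold change of 0.02 ± 0.26 (SE). HIST1H1A had a mean of 0.149 TPM and was not tested.

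HIST1H1T encodes the testis variant of H1 and lies at chr6:26107412-26108135 on the minus strand, as 1 exon. It had 1.88, 1.71 and 2.00 TPM with vehicle and was listed at 0.640, 0.796 and 0 TPM with DOX. No sample of the groups overlapped. The reads behind these values were few, with 20, 20 and 5 reads with vehicle and 41, 10 and 0 reads with DOX. Its log2 fold change was -0.997 ± 0.197 (SE, adjusted p = 0.0044 by limma), and in the fit with the block the adjusted p was 8.9e-07. The latter rests on an SE of 0.168 from the trend over all genes. With voom on the reads the gene was not called (with the block, adjusted p = 0.129 and log2 fold change -1.38 ± 0.59). The call was also lost without vehicle replicate 2, vehicle replicate 3 or DOX replicate 3 (adjusted p = 0.301, 0.225 and 0.0658 by limma). Over all alternatives its adjusted p ran from 9.29e-08 to 0.729.

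The H2A class had the widest differences. Its median log2 fold change was 0.38 on TPM and 0.83 after scaling, the highest of the 5 classes on both scales. After scaling, 9 of 13 tested genes were higher at an unadjusted p and the fold change, against 1.17% of all genes. That count was 4 of 10 in H4 and 1 of 5 in H1, where 1 was also lower. The H2A class summed to 999, 801 and 1192 TPM with vehicle and 1138, 1358 and 1008 TPM with DOX. In scaled TPM it was 839 ± 114 (SD, n = 3) and 1358 ± 278 (SD, n = 3).

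HIST2H2AC, the most abundant H2A gene, had 434, 377 and 611 TPM with vehicle and 547, 611 and 454 TPM with DOX. The groups overlapped, with a log2 fold change of 0.20 ± 0.25 (SE, adjusted p = 0.564 by limma). After scaling it was 0.65 ± 0.19, and voom with the block called it higher (0.70 ± 0.13, adjusted p = 0.0137). HIST2H2BE, which starts on the other side of the shared span shown above, had a log2 fold change of 0.33 ± 0.15 after scaling and was not called by any of these fits.

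HIST1H2AG had 123, 90.3 and 110.3 TPM with vehicle and 139.8, 174 and 112 TPM with DOX. Most DOX samples were above the vehicle samples, and voom with the block called the gene higher (0.87 ± 0.13, adjusted p = 0.00812), the smallest adjusted p of that fit among histone genes. HIST1H2AC and HIST1H2AI had log2 fold changes of -0.05 ± 0.27 and -0.18 ± 0.28 on TPM and of 0.39 ± 0.15 and 0.26 ± 0.14 after scaling, and were called in none of these fits. With voom and the block HIST1H2AC passed the adjusted p (0.0374 at 0.43 ± 0.12) but not the fold change.

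HIST1H2AH, HIST2H2AB and HIST1H2AK had the largest positive log2 fold changes of TPM among the histone genes. HIST2H2AB and HIST1H2AK were named after their values were seen. HIST1H2AH had 45.8, 22.5 and 28.2 TPM with vehicle and 50.2, 79.3 and 48.8 TPM with DOX, and HIST1H2AK had 22.5, 9.56 and 13.3 TPM and 24.6, 37.0 and 23.2 TPM. In both genes every DOX sample was above every vehicle sample, by a small margin over vehicle replicate 1. HIST2H2AB had 54.1, 19.2 and 18.7 TPM with vehicle and 50.8, 62.4 and 46.5 TPM with DOX, so vehicle replicate 1 lay among the DOX samples. The log2 fold changes were 0.89 ± 0.29 for HIST1H2AH (adjusted p = 0.0627 by limma), 0.91 ± 0.28 for HIST1H2AK (adjusted p = 0.0568) and 0.94 ± 0.31 for HIST2H2AB (adjusted p = 0.0629).

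The fit with the block called all 3 higher, with adjusted p of 0.000311, 0.000223 and 0.000147. The SE there was 0.20 for each, from the trend over all genes. For HIST2H2AB the samples numbered 1 went the other way, with 54.1 TPM with vehicle and 50.8 TPM with DOX. Voom with the block called all 3 too, with log2 fold changes of 1.27 ± 0.23, 1.27 ± 0.29 and 1.10 ± 0.26. In vehicle replicate 3, the shallowest sample, they rested on 31, 13 and 17 reads. Less than 7% of the 50-base words of each occur in another gene, at 3.19%, 6.26% and 1.56%. HIST1H2AJ and HIST1H2AM, also named after their values were seen, had log2 fold changes of 0.98 ± 0.17 and 0.98 ± 0.24 after scaling, but share 66.3% and 67.8% of their words with another gene. HIST1H2AB, HIST1H2AL and HIST1H2AM, the first 2 named for this, were also called higher by voom with the block (0.84 ± 0.23, 0.91 ± 0.22 and 0.95 ± 0.21).

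**Figure D4:**
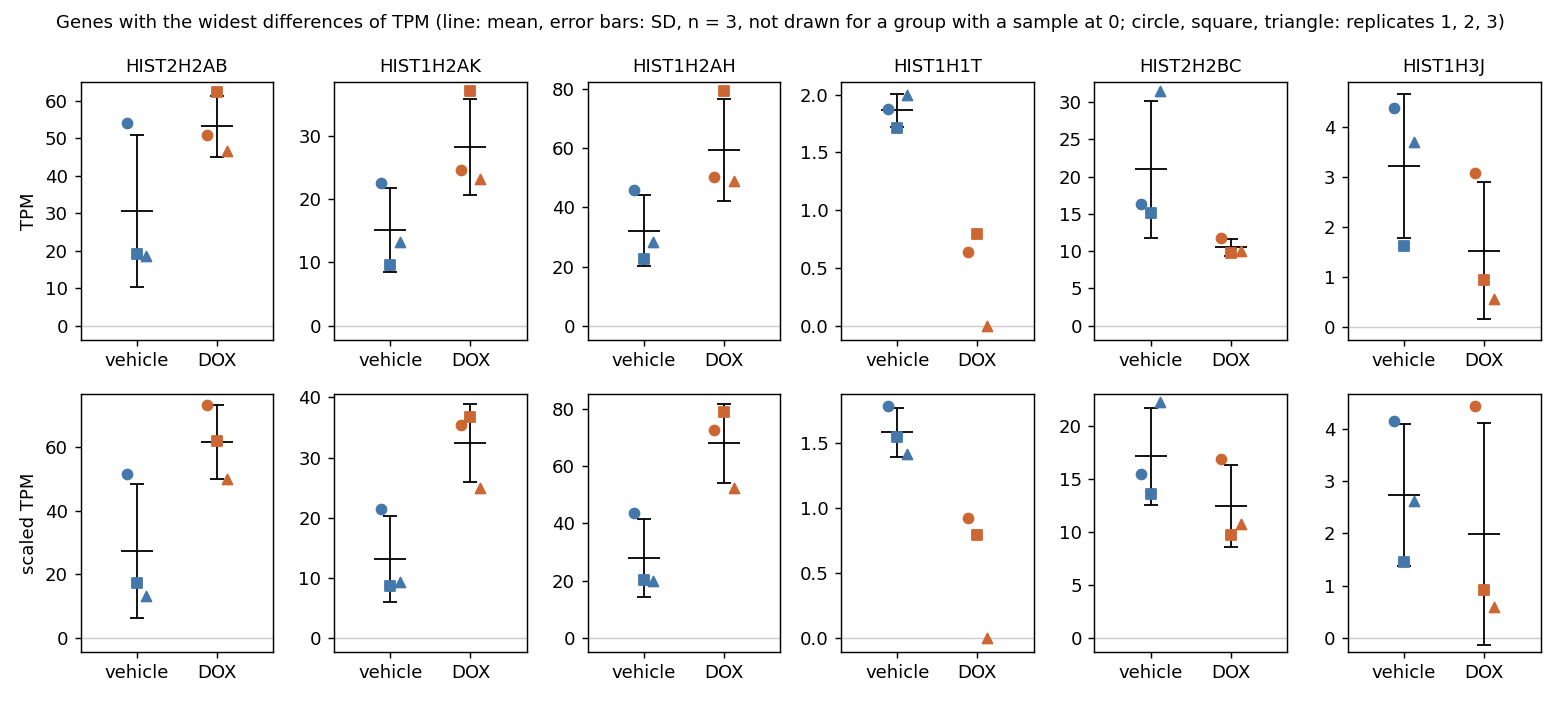
TPM (upper row) and scaled TPM (lower row) in each sample for the 3 genes with the largest positive and the 3 with the largest negative log2 fold change of TPM, with the mean and SD (n = 3) where no sample is at 0. In the first 3 genes vehicle replicate 1 (circle) is above the other vehicle samples and near the DOX samples.

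Most H2B genes differed less. The class had a median log2 fold change of 0.04 on TPM and 0.43 after scaling. After scaling, 3 of 16 tested genes were higher at an unadjusted p and the fold change (against 1.17% of all genes). HIST1H2BC, which had the highest mean TPM of all clustered histone genes though not the most recovered reads, had 657, 548 and 532 TPM with vehicle and 613, 704 and 562 TPM with DOX. These overlapped, and the log2 fold change was 0.11 ± 0.24 (SE, adjusted p = 0.738 by limma). With voom and the block it was 0.55 ± 0.10 (adjusted p = 0.0116), under the fold change asked of a call.

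HIST1H2BK averaged 341 ± 82.7 TPM in vehicle samples and 276 ± 49.2 TPM in DOX samples (SD, n = 3 each), and HIST2H2BE 177 ± 48.2 and 160.2 ± 4.64 TPM. Their log2 fold changes on TPM were -0.29 ± 0.26 and -0.11 ± 0.27. HIST1H2BN and HIST1H2BO were called higher by voom with the block, at 0.68 ± 0.16 and 0.81 ± 0.15 (adjusted p = 0.0224 and 0.0126), as were HIST1H2BJ, HIST1H2BL and HIST2H2BF, named for that call. HIST1H2BN starts 194 bases from HIST1H2AK, and after scaling its log2 fold change of 0.58 ± 0.18 stood beside 1.33 ± 0.29 for HIST1H2AK.

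HIST2H2BC, listed by RefSeq as the pseudogene H2BC20P, moved the other way and was named after its values were seen. It had 16.3, 15.1 and 31.5 TPM with vehicle and 11.7, 9.73 and 10.0 TPM with DOX, with no overlap. Its log2 fold change was -0.86 ± 0.27 (SE, adjusted p = 0.0572 by limma, and 0.000426 with the block). After scaling the groups overlapped and it was -0.44 ± 0.22. All of its 50-base words (100%) occur in another gene, so its reads cannot be told apart from those of a copy.

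Octamer genes of the H2A and H2B classes were described side by side with those searched and lacking it, a split made after values were seen. HIST1H2AH, HIST2H2BC and the 5 unplaced H2B genes had no promoter searched and are in neither set. Head-to-head genes share the sites between their starts, so both genes of a pair fall in the same set. The 15 tested genes with the octamer had a median log2 fold change of 0.29 on TPM and 0.73 after scaling. Of these 15, 9 were called higher by voom with the block, against 1.46% of all genes. The 7 tested genes without it had medians of -0.18 and 0.26, and 3 were called. Most tested genes with the octamer were H2A genes, and most without it were H2B genes. After scaling the class median was 0.83 in H2A and 0.43 in H2B. HIST3H2A and HIST3H2BB are both in the set without it. Whether class or cluster accounts for the gap between the sets was not tested. HIST1H2AK, among the widest differences, has no octamer in the window, and HIST2H2AB has 1.

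The H3 class had a median log2 fold change of 0.07 on TPM and 0.51 after scaling. After scaling, 2 of 8 tested genes were higher at an unadjusted p and the fold change (against 1.17% of all genes). HIST1H3B, the most abundant, had 339, 274 and 453 TPM with vehicle and 381, 424 and 334 TPM with DOX. The groups overlapped on TPM (log2 fold change 0.12 ± 0.26, adjusted p = 0.738 by limma) and not after scaling (0.57 ± 0.18). Voom with the block called it higher (0.61 ± 0.12, adjusted p = 0.0152), together with HIST1H3H (0.73 ± 0.14), HIST2H3D (0.84 ± 0.16) and HIST1H3G (0.66 ± 0.20).

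HIST1H3A averaged 94.2 ± 36.8 TPM in vehicle samples and 79.5 ± 14.4 TPM in DOX samples (SD, n = 3 each) and was called in none of these fits. HIST1H3J was called lower in the fit with the block (adjusted p = 0.000251) and was named after its values were seen. It had 4.37, 1.60 and 3.70 TPM with vehicle and 3.08, 0.925 and 0.557 TPM with DOX, and these overlapped. It rested on 4 reads in vehicle replicate 3 and 3 reads in DOX replicate 3, and its log2 fold change was -0.81 ± 0.26 on TPM and -0.48 ± 0.42 after scaling.

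Most H4 genes encode the same protein from many copies, and 5 of the 15 were listed at 0. HIST1H4B, the most abundant, had 412, 356 and 405 TPM with vehicle and 452, 570.4 and 391 TPM with DOX. Only DOX replicate 3 lay among the vehicle samples, and the log2 fold change was 0.25 ± 0.25 (SE, adjusted p = 0.46 by limma). After scaling the groups did not overlap (0.70 ± 0.19), and voom with the block called it higher (0.73 ± 0.12, adjusted p = 0.01). HIST1H4C and HIST1H4K were called in the same fit (0.83 ± 0.16 and 0.80 ± 0.17), though 92.6% of the words of HIST1H4K occur in another gene. HIST1H4H and HIST1H4D, at 0.45 ± 0.13 and 0.50 ± 0.19, were not, and the first passed the adjusted p (0.0479) but not the fold change. HIST1H4L, named after its values were seen, was called higher with the block on TPM (adjusted p = 0.00862), but was listed at 0 in vehicle replicate 2 and had 3 reads in vehicle replicate 3.

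Genes of other histones gave the nearest comparison. A list of histone genes outside the clusters, mostly with polyadenylated mRNAs, held 15 genes. Among them H3F3A, H2AFB1, H1FOO and H1FNT were listed at 0 in every sample, and H3F3C had a mean under 1 TPM. The other 10 were tested, and 0 were called in either direction by limma on TPM or after scaling. At an unadjusted p and the fold change, 0 differed on TPM and 1 was higher after scaling, namely H2AFX. Their median log2 fold change was -0.13 on TPM and 0.21 after scaling, between the clustered genes and all genes. H2AFZ, which encodes the replacement histone H2A.Z, averaged 116 ± 19.5 TPM in vehicle samples and 110.5 ± 27.2 TPM in DOX samples (SD, n = 3 each). H1F0 and H3F3B had log2 fold changes of -0.53 ± 0.27 and -0.47 ± 0.27 on TPM, and of -0.09 ± 0.14 and -0.03 ± 0.15 after scaling. H2AFX, whose current symbol H2AX is one of the genes with stem-loop letters outside the members placed, was the only one of the 10 called higher by voom with the block (0.74 ± 0.15, adjusted p = 0.0143), and was named for that after its values were seen.

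Factors that transcribe, process and degrade histone mRNA were mostly near the median of all genes. Of 26 in the list, 25 were tested, 1 was called lower and 0 were called higher, with a median log2 fold change of -0.35 on TPM and 0.03 after scaling. XRN1, a 5′ to 3′ exonuclease that acts in histone mRNA decay, had 14.8, 18.9 and 24.3 TPM with vehicle and 4.55, 13.3 and 7.75 TPM with DOX. The groups did not overlap. It fell by 1.17 on the log2 scale (SE 0.28, adjusted p = 0.0277 by limma), and voom with the block called it lower too (-0.83 ± 0.13, adjusted p = 0.0106). After scaling it was -0.77 ± 0.21 and was not called (adjusted p = 0.28), and on TPM its call was lost without vehicle replicate 2, vehicle replicate 3 or DOX replicate 1 (adjusted p = 0.301, 0.457 and 0.0593 by limma). With the block on TPM, 6 of the 25 were called lower (24.0%, against 19.0% of all genes), namely XRN1, NPAT, CASP8AP2, ERI1, ZCCHC6 and POU2F1.

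NPAT, the coactivator at histone loci, averaged 14.7 ± 3.50 TPM in vehicle samples and 7.69 ± 3.04 TPM in DOX samples (SD, n = 3 each). It and the other genes called only with the block were named after their values were seen. Its log2 fold change was -0.90 ± 0.27 on TPM (adjusted p = 0.0521 by limma) and -0.50 ± 0.17 after scaling. SLBP, which binds the stem-loops shown above, averaged 25.2 ± 3.74 and 19.6 ± 3.996 TPM (SD, n = 3 each), and a log2 fold change of 0.07 ± 0.11 after scaling. CPSF2, YY1 and CDK2, the most abundant of the list, had log2 fold changes of -0.57, -0.40 and -0.29 on TPM and of -0.14, 0.03 and 0.14 after scaling.

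S phase genes had a smaller median difference than the clustered histone genes on the scaled values. All 25 in the list were tested and 0 were called in either direction by limma on TPM or after scaling. At an unadjusted p and the fold change, 0 differed on TPM and 1 was higher after scaling, namely CDT1. The median log2 fold change was -0.25 on TPM and 0.18 after scaling, beside 0.11 and 0.55 for the histone genes. TYMS, which makes thymidylate, and the replication proteins PCNA and MCM4 averaged 79.98 ± 14.3, 67.7 ± 12.5 and 58.2 ± 11.9 TPM in vehicle samples (SD, n = 3 each). In DOX samples they averaged 68.1 ± 18.2, 55.6 ± 14.9 and 50.1 ± 14.2 TPM. After scaling their log2 fold changes were 0.19 ± 0.12, 0.14 ± 0.12 and 0.21 ± 0.12. CDT1, a licensing factor named after its values were seen, was the only one called higher by voom with the block (0.85 ± 0.15, adjusted p = 0.0116). The difference between the medians of these lists and of the histone genes was not tested.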

How the data were processed

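Stranded mRNA libraries were sequenced by the authors, who used STAR and GRCh38 and deposited a table of TPM per gene symbol. The comparison of DOX with vehicle that the authors made with DESeq2 and deposited holds log2 fold changes and standard errors, the Wald score and p-values, none of which was used, and a mean signal of normalized counts, which was used only to recover reads. Tool versions, the program that counted reads and whether it used strand are not given in the sources used here. The paper and the sample records name different RNA isolation methods.

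DOX was compared with vehicle by limma 3.58.1 (R 4.3.3) with a variance trend on log2(TPM + 1), over the 11672 genes whose mean TPM reached 1. Fold changes on this scale understate the change of low genes. A call needed a Benjamini-Hochberg adjusted p below 0.05 and more than 1.5-fold change. Of 21285 low values, 98.9% gave reads within 0.05 of a whole number, against 10% by chance, and voom was run on the rounded reads. In 34 histone genes with 1 exon and a span of 387 to 797 bases, reads per TPM rose with length along a line that reached 0 at 322 bases. TPM of the shortest genes is thus raised relative to reads per annotated length, and their recovered reads are approximate. Median-of-ratios factors rest on 15075 genes above 0 in all samples. Other pseudocounts, minimum levels and scalings, the block, GC and length correction by regression and leaving out each sample were tried as alternatives.

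Same-numbered samples deviated together across genes (r of 0.57, 0.24 and 0.21 for numbers 1, 2 and 3), which is the only ground for the replicate block. The highest r with another number was -0.24, 0.19 and 0.19. In scaled TPM r was 0.55, 0.26 and 0.18 for the same number and at most -0.18, 0.22 and 0.22 for another, so number 3 there correlated more with another number than with its own. Over histone genes alone r on TPM was 0.13, -0.33 and -0.11. The members and lists were chosen with earlier results of these data known. Named genes were the 5 with the highest mean TPM in each class, the 3 with the highest mean TPM in each list, and every gene called by limma on TPM. Other genes were named after their values were seen. Positions come from RefSeq and GENCODE release 44 on GRCh38. The fits were tested on simulated data. Tables were handled with Python 3.11.15 and pandas 2.3.3 and figures drawn with matplotlib 3.10.9.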

Additional observations from a re-analysis of the deposited data

How the results depend on the processing

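The count of histone genes called lower was 1 on TPM (against 2.98% of all genes). It was 0 with no minimum level, after median-of-ratios scaling with or without the block, after rescaling without the small RNAs, with voom with or without the block, and after GC and length correction of scaled TPM. Among all genes these settings called 0 or 1 lower, save 2.24% with voom and the block. The histone count was 3 with the replicate block (against 19.0% of all genes) and 3 after GC and length correction (against 2.84%). With both it was 4, beside 1079 of all 11187 genes with GC content and length. Leaving out each sample in turn gave 0 to 4, beside 0 to 2363 of all 11672 genes. The 4 came on TPM without DOX replicate 1 (123 of all genes). The 2363 came on TPM without DOX replicate 2, where 3 histone genes were called lower. The count called higher was 0 on TPM, 3 at a minimum mean TPM of 5, 4 with the replicate block, 22 with voom and the block, and 3 with GC and length correction and the block. In the same order, all genes gave 0.0257%, 4 of 7191, 0.129%, 1.46% and 6 of 11187. Leaving out each sample gave 0 to 6 histone genes, with 6 after scaling without vehicle replicate 1 and 5 on TPM without it. Among all 11672 genes these 2 fits called 15 and 25 higher. The median log2 fold change of the histone genes was 0.11 on TPM, 0.55 after median-of-ratios scaling with or without the block, 0.47 without the small RNAs, 0.59 with voom and 0.62 with voom and the block. It ran from -0.046 to 0.72 when each sample was left out, on either scale, with -0.046 on TPM without vehicle replicate 2. It stayed above the median of all genes in all 24 alternatives. Alternatives with GC correction and block, GC correction and scaling, and samples left out after scaling were chosen after seeing the data. The voom call of 22 against 0 rests on the block, and the pairing itself rests on correlations alone, in which number 3 did not correlate best with itself after scaling.

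The log2 fold change of single genes changed sign mainly with the scaling. It is given here on TPM, then after median-of-ratios scaling (with or without the replicate block), without the small RNAs, with voom and with voom and the block. It was -0.21, 0.23, 0.14, 0.25 and 0.24 for HIST1H1C, -0.05, 0.39, 0.30, 0.43 and 0.43 for HIST1H2AC, and -0.18, 0.26, 0.17, 0.32 and 0.33 for HIST1H2AI. It was -0.29, 0.15, 0.064, 0.16 and 0.15 for HIST1H2BK, -0.11, 0.33, 0.24, 0.34 and 0.34 for HIST2H2BE, -0.19, 0.25, 0.16, 0.38 and 0.43 for HIST1H3A, and -0.04, 0.40, 0.31, 0.40 and 0.45 for HIST1H4H. It was -0.09, 0.35, 0.27, 0.36 and 0.37 for H2AFZ, -0.29, 0.14, 0.058, 0.15 and 0.15 for CDK2, -0.25, 0.19, 0.10, 0.19 and 0.20 for TYMS, -0.30, 0.14, 0.052, 0.14 and 0.15 for PCNA, and -0.23, 0.21, 0.12, 0.21 and 0.21 for MCM4. For YY1 it was -0.40 on TPM, 0.033 after scaling, 0.034 with voom and 0.025 with voom and the block. After GC and length correction of TPM it was -0.10 for HIST1H1B, -0.21 for HIST1H1E, -0.16 for HIST1H1D, -0.082 for HIST2H2AC, 0.018 for HIST1H2AC, -0.13 for HIST1H3B, -0.083 for HIST2H3D, -0.26 for HIST1H3G, -0.11 for HIST1H4K and -0.13 for HIST1H4D, each of opposite sign to TPM. Leaving out each sample on TPM gave -0.34 to 0.039 for HIST1H1C, -0.13 to 0.33 for HIST1H1E, -0.17 to 0.22 for HIST1H1D, -0.19 to 0.14 for HIST1H2AC, -0.34 to 0.045 for HIST1H2AI, -0.22 to 0.10 for HIST2H2BE, -0.040 to 0.46 for HIST1H2BN, -0.052 to 0.31 for HIST1H3B, -0.41 to 0.10 for HIST1H3A, -0.14 to 0.28 for HIST1H3G, -0.27 to 0.082 for HIST1H4H and -0.27 to 0.060 for H2AFZ. The cause was not tested.

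HIST1H1T kept its sign in every alternative run and rests on few reads. At the depth of vehicle replicate 3, tested genes under about 10 reads there are measured poorly. Among them are HIST1H1T itself, HIST1H2AJ, HIST1H2BE, HIST3H2BB, HIST1H3J, HIST1H4I and HIST1H4L.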
